A study of Mus musculus with 4 samples.

Results

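The genes described here are 56 factors that build ribosomes: proteins of the small-subunit processome, of small- and large-subunit assembly, of the small nucleolar ribonucleoproteins (snoRNPs), and of the nucleolar scaffold. They were picked by gene name from a table of 53465 genes. All 56 names were found, each on 1 row, and all 56 were among the 13528 genes with enough counts to be tested. Gene Ontology terms in the deposited table place 53 of them in the nucleolus, a term that 5.91% of the genes tested carry, and give 50 of them the term ribosome biogenesis, which 1.84% carry.

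Mouse spleen was the source of the CD8+ T cells, and RNA was taken after 24 h of stimulation on beads coated with anti-CD3 and anti-CD28, which stand in for antigen and costimulation. Of 4 libraries, all stimulated in the same way, 2 carry the label WT (wild type) and 2 the label KO (PP2Cm-/-). PP2Cm, encoded by Ppm1k, is a mitochondrial phosphatase that switches on the breakdown of branched-chain amino acids. The labels call the libraries biological replicates without naming mice, strain, age, sex or the knockout allele, so p-values measure the spread between these libraries.

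The genotype of the libraries is in doubt. The genotype field and title of every library name 1 genotype, and its description code, which heads its column in the table, begins with the letters of the other. Labelled WT and labelled KO refer here to the genotype field and title. Ppm1k stood at 7.84 and 5.53 CPM (counts scaled to a library of 1000000) in the WT-labelled pair and at 11.8 and 14.3 CPM in the KO-labelled pair (log2 fold change 0.97, standard error 0.23, adjusted p = 0.186 by edgeR). That order goes against the labels if the knockout lowers the Ppm1k transcript, which cannot be told here because the allele is not named. Every sign below would turn if the column codes named the genotype.

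Ribosomes are made in the nucleolus. RNA polymerase I transcribes a long precursor RNA, box C/D and box H/ACA snoRNPs guide its methylation and pseudouridylation, and the small-subunit processome folds and cleaves its 5′ part. Other factors assemble the large subunit around the rest, and both precursors are then exported and finished in the cytoplasm. T cells enlarge their nucleoli soon after activation, and the transcription factor MYC is known to drive many of these genes.

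Across the list, levels were mostly higher in the KO-labelled pair by a small margin. Of the 56 members, 51 had a positive log2 fold change, where 48.1% of all genes tested did, and the median over the members was 0.27, against −0.01 over all genes tested. In 38 members the KO-labelled pair lay wholly above the WT-labelled pair, an order found in 21.5% of all genes tested, and in 2 members both lay below, found in 23.3%. The summed level of the 56 genes was 13852 and 15297 CPM in the WT-labelled pair and 17177 and 17223 CPM in the KO-labelled pair, a ratio of means of 1.18.

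No single member passed the threshold. By the quasi-likelihood test of edgeR, with p-values adjusted over all genes tested and a threshold of 0.05, 0 of 56 members were called, where 0.207% of all genes were. Their adjusted p values ran from 0.147 to 0.962. Before adjustment, 27 members had p under 0.05 with the KO-labelled pair higher and 0 with it lower, against 5.7% and 7.23% of all genes. DESeq2 called 2 members, both higher: Mdn1 and Gnl3. Of all genes it called 2.04%, and 0.665% as higher.

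The libraries of 1 label also differed from each other. The median member was 0.14 higher on the log2 scale in labelled WT replicate 2 than in replicate 1, and 42 of 56 members lay that way. Over all genes tested the median of this difference was −0.003, and 6725 of 13528 genes lay that way. Between the libraries labelled KO, the median member was 0.03 lower in replicate 2. For the 4 pairings across labels, the median member was 0.32 and 0.22 higher in labelled KO replicate 1 than in labelled WT replicates 1 and 2, and 0.33 and 0.20 higher in labelled KO replicate 2. All 4 medians across labels exceeded the median gap within either label.

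**Figure D1:**
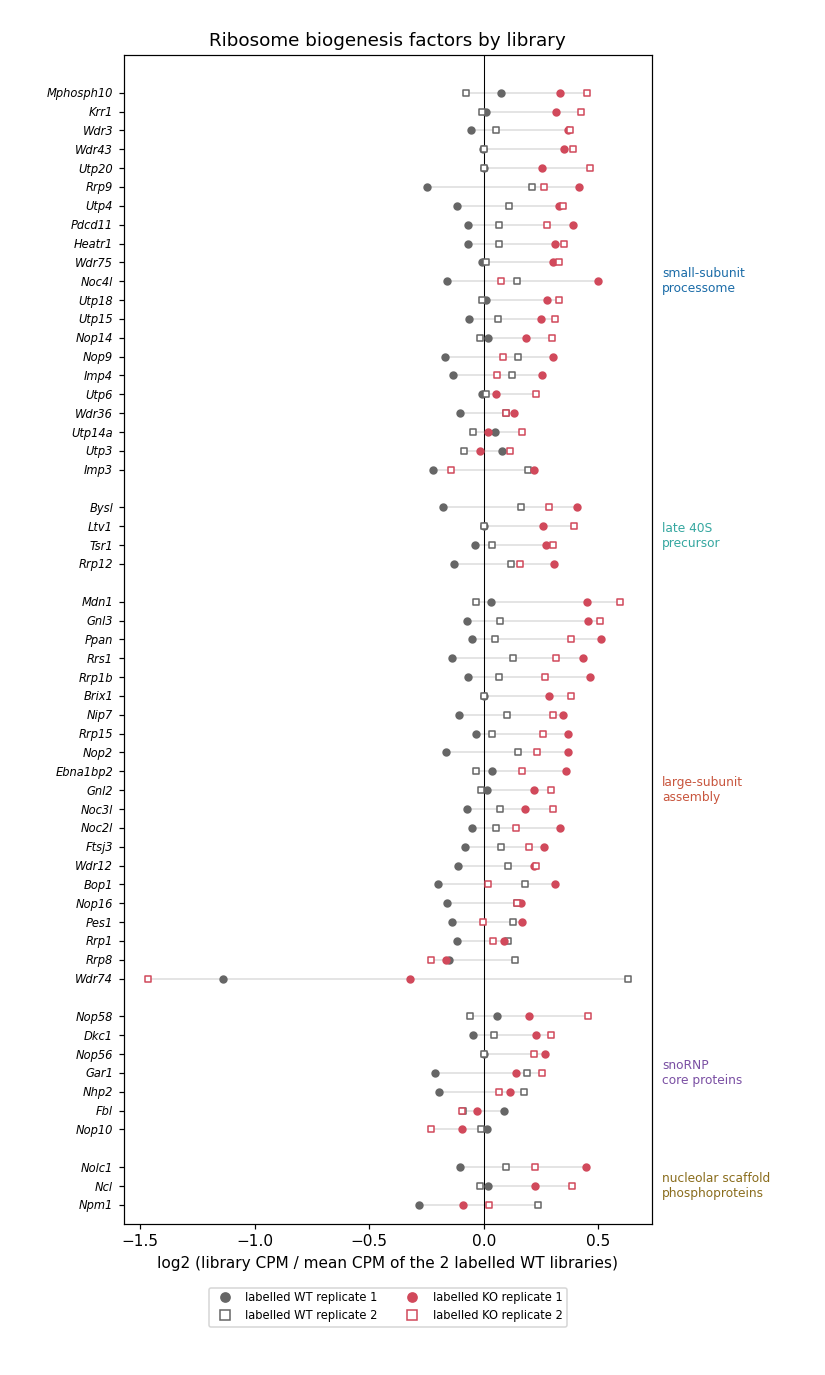
Each row is 1 of the 56 genes, grouped by role, and each point is 1 library, placed by the log2 ratio of its CPM to the mean CPM of both libraries labelled WT. In 38 genes both labelled KO points lie to the right of both labelled WT points, in 2 both lie to the left, and in 16 the labels overlap, Wdr74 with the widest scatter. The labels overlap in 7458 of the 13528 genes tested.

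The small-subunit processome is the largest early particle of ribosome assembly, and its 21 members all had positive log2 fold changes (median 0.30), from 0.05 to 0.39. In 14 of them the KO-labelled pair lay wholly above the WT-labelled pair, and 11 had an unadjusted p under 0.05 by edgeR. Over all genes tested, 21.5% had that order and 5.7% such a p with the KO-labelled pair higher.

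Wdr43, a WD-repeat protein of the UtpA complex that binds the nascent precursor first, stood at 270.4 and 271 CPM in the WT-labelled pair and at 345 and 354 CPM in the KO-labelled pair. The labels were far apart and the replicates close. Its log2 fold change was 0.37 (standard error 0.10, adjusted p = 0.229).

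The other 4 UtpA members of the list had the same order of libraries. These were Utp4, Utp15, Wdr75 and Heatr1, a large HEAT-repeat scaffold. Heatr1 stood at 373 and 410.4 CPM in the WT-labelled pair and at 486 and 499 CPM in the KO-labelled pair. In all 5 UtpA genes the KO-labelled pair lay wholly above the WT-labelled pair and the unadjusted p was under 0.05 by edgeR, with log2 fold changes of 0.28 to 0.37. Shares over all genes tested were 21.5% for that order and 5.7% for such a p with the KO-labelled pair higher.

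UtpB, the next complex to join, had 1 of 4 genes with overlapping labels, beside 7458 of the 13528 genes tested. Wdr3 stood at 171 and 184 CPM in the WT-labelled pair and at 229 and 229.6 CPM in the KO-labelled pair (log2 fold change 0.37, standard error 0.10, adjusted p = 0.234). Wdr36, of the same complex, stood at 202 and 232 CPM against 237 and 231 CPM, and the labels overlapped. Over the 4 UtpB genes log2 fold changes ran from 0.11 to 0.37.

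Mphosph10 anchors the MPP10 complex, which also holds Imp3, Imp4 and Utp3. It stood at 84.4 and 75.7 CPM in the WT-labelled pair and at 101 and 109 CPM in the KO-labelled pair, the highest log2 fold change of the 21 processome genes at 0.39 (standard error 0.12, adjusted p = 0.257). Its partner Imp3 stood at 81.4 and 109 CPM against 111 and 85.9 CPM, so that the spread within each label covered the difference between them. In 3 of the 4 genes of this complex the labels overlapped, as they did in 7458 of the 13528 genes tested.

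Krr1, a KH-domain protein of the same particle, stood at 76.7 and 75.8 CPM in the WT-labelled pair and at 94.8 and 102 CPM in the KO-labelled pair (log2 fold change 0.37, standard error 0.11, adjusted p = 0.257). It shares 352 exon bases with Glipr1 on the opposite strand, and no source used here says if strand was used in counting. Utp20, a very long HEAT-repeat protein, stood at 278 and 279 CPM against 332 and 383 CPM (log2 fold change 0.36, standard error 0.12, adjusted p = 0.276). Its replicates labelled WT were nearly equal and those labelled KO were spread.

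Late precursors of the small subunit were represented by 4 genes. In all 4 the KO-labelled pair lay wholly above the WT-labelled pair, an order found in 21.5% of all genes tested. Ltv1, an adaptor that leaves the particle in its last steps, stood at 89.2 and 89.2 CPM against 107 and 117 CPM (log2 fold change 0.33, standard error 0.11, adjusted p = 0.298). Tsr1, a GTPase-like factor that holds the immature particle in check, stood at 164 and 173 CPM against 204 and 208 CPM (log2 fold change 0.29, standard error 0.10, adjusted p = 0.307). Replicates of both genes were closer than the labels.

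Bysl, which takes part in export of the particle, stood at 119 and 151 CPM in the WT-labelled pair and at 179 and 165 CPM in the KO-labelled pair (log2 fold change 0.35, standard error 0.14, adjusted p = 0.369). It shares 361 exon bases with Ccnd3 on the opposite strand, which had 1844 and 4526 counts in the WT-labelled pair and 1334 and 2340 in the KO-labelled pair. Rrp12, an export factor, stood at 184 and 219 CPM against 248.6 and 225 CPM (log2 fold change 0.23, standard error 0.13, adjusted p = 0.497). The gap between labels was narrow for Rrp12. Leaving out labelled WT replicate 1 gave log2 fold changes of 0.12 for Rrp12 and 0.19 for Bysl, and leaving out replicate 2 of that label gave 0.36 and 0.53.

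Large-subunit assembly held both the highest and the lowest fold changes of the 56 genes. The median log2 fold change of its 21 members was 0.26 and 19 were positive. Of them 9 had an unadjusted p under 0.05 by edgeR, all of them higher, beside 5.7% of all genes tested. In 15 the KO-labelled pair lay wholly above the WT-labelled pair, beside 21.5% of all genes tested.

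Mdn1 encodes midasin, a giant AAA ATPase that strips assembly factors from the large-subunit precursor. It stood at 398 and 380.0 CPM in the WT-labelled pair and at 532 and 587 CPM in the KO-labelled pair. Both libraries labelled KO were well above both labelled WT, 1.44-fold by the fit (log2 fold change 0.52, standard error 0.11, 95% limits 0.26 and 0.79). The adjusted p was 0.147 by edgeR and 0.00515 by DESeq2. Mdn1 lies on chromosome 4 from 32657119 to 32775217 (GRCm38, plus strand), and its longest annotated transcript of 17970 bases is the longest of the list.

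Gnl3 encodes nucleostemin, a nucleolar GTPase known from stem and dividing cells. It stood at 119.5 and 132 CPM in the WT-labelled pair and at 172 and 179 CPM in the KO-labelled pair. The labels did not overlap, and the log2 fold change was 0.48 (standard error 0.11, 95% limits 0.22 and 0.74), with an adjusted p of 0.161 by edgeR and 0.0324 by DESeq2. Gnl3 lies on chromosome 14 from 31012433 to 31019152 (GRCm38, minus strand).

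Ppan, a Brix-domain protein that binds the large-subunit precursor, stood at 148 and 159 CPM in the WT-labelled pair and at 219 and 199.98 CPM in the KO-labelled pair (log2 fold change 0.45, standard error 0.11, adjusted p = 0.186 by edgeR). Brix1, of the same domain family, stood at 95.3 and 95.4 CPM against 116 and 124 CPM (log2 fold change 0.33, standard error 0.11, adjusted p = 0.276). Replicates labelled WT were almost identical for Brix1. Rrp1b, the paralogue of Rrp1, stood at 137 and 150.4 CPM against 198 and 173 CPM (log2 fold change 0.37, standard error 0.12, adjusted p = 0.279), whereas Rrp1 itself stood at 324 and 378 CPM against 373 and 361 CPM, with overlapping labels. The difference between the paralogues was not tested.

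PeBoW, the trimer of Pes1, Bop1 and Wdr12 that acts on the precursor of the large-subunit RNA, had log2 fold changes of 0.08 to 0.22. Wdr12 stood at 106 and 123 CPM in the WT-labelled pair and at 133 and 134 CPM in the KO-labelled pair (log2 fold change 0.22, standard error 0.12, adjusted p = 0.481), without overlap. For Pes1 and Bop1 the labels overlapped.

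Only Rrp8 and Wdr74 of the large-subunit factors had negative log2 fold changes. Rrp8, which methylates a base of the large-subunit RNA, stood at 58.7 and 71.6 CPM in the WT-labelled pair and at 58.0 and 55.6 CPM in the KO-labelled pair (log2 fold change −0.20, standard error 0.15, adjusted p = 0.623). Both libraries labelled KO lay just under both labelled WT. It shares 355 exon bases on the opposite strand with Ilk, which had 1053 and 1288 counts against 867 and 847.

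Wdr74, a WD-repeat partner of the ATPase that releases factors from the large-subunit precursor, stood apart from the rest by its scatter. Its level was 32.1 and 109 CPM in the WT-labelled pair and 56.4 and 25.5 CPM in the KO-labelled pair. Labelled WT replicate 2 was the highest and the labels overlapped. The log2 fold change of −0.79 was imprecise (standard error 0.57, 95% limits −2.14 and 0.56, adjusted p = 0.614), and it was 0.35 without labelled WT replicate 2.

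**Figure D2:**
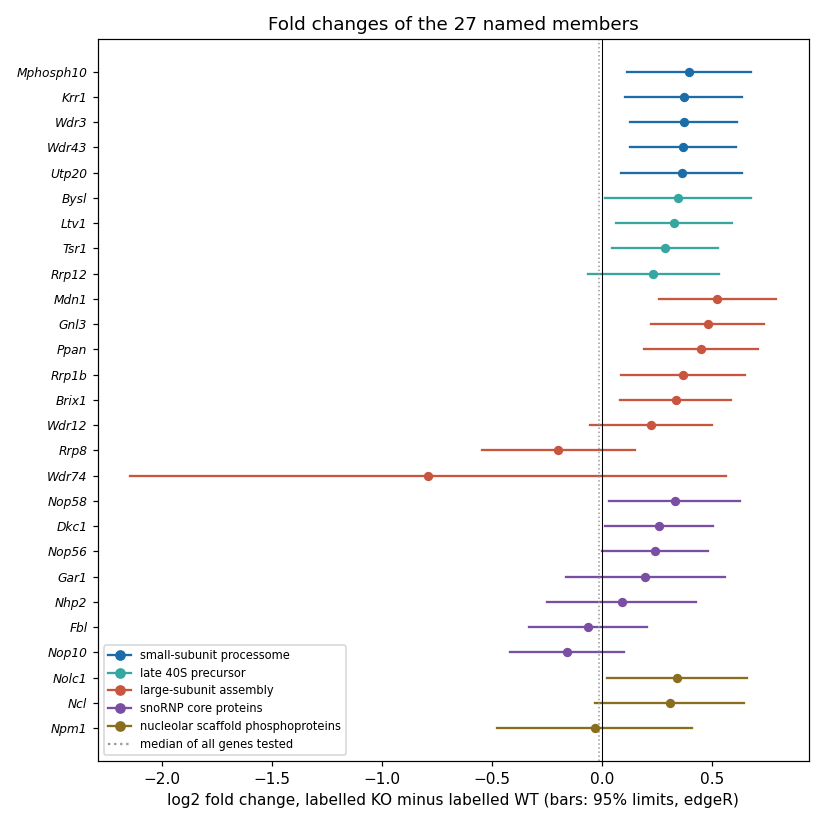
Points are log2 fold changes (labelled KO minus labelled WT) of 27 genes chosen by rule and bars their 95% limits from the edgeR fit over all genes, coloured by role. Limits of Mdn1 (0.26 and 0.79) lie farthest above 0, and those of Wdr74 (−2.14 and 0.56) are the widest.

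The 7 core proteins of the snoRNPs were divided. Box C/D particles, which carry the RNA methyltransferase fibrillarin (Fbl), have Nop56 and Nop58 as their other large subunits. Fbl stood at 367 and 325 CPM in the WT-labelled pair and at 339 and 324 CPM in the KO-labelled pair (log2 fold change −0.06, standard error 0.11, 95% limits −0.33 and 0.21, adjusted p = 0.867). Its labels overlapped, and those of its partners did not.

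Nop56 stood at 299 and 298 CPM in the WT-labelled pair and at 359 and 347 CPM in the KO-labelled pair (log2 fold change 0.24, standard error 0.10, adjusted p = 0.386). Nop58 stood at 228 and 209.9 CPM against 250.5 and 299.6 CPM (log2 fold change 0.33, standard error 0.13, adjusted p = 0.344). Both were higher in each library labelled KO than in either labelled WT. Whether Fbl differs from them in its response was not tested.

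In the box H/ACA particle, Dkc1 encodes the pseudouridine synthase dyskerin, and Gar1, Nhp2 and Nop10 its small partners. Dkc1 stood at 175 and 186 CPM in the WT-labelled pair and at 211 and 220.5 CPM in the KO-labelled pair (log2 fold change 0.26, standard error 0.10, adjusted p = 0.367). Gar1 stood at 86.7 and 115 CPM against 111 and 119.8 CPM, and Nhp2 at 259 and 335 CPM against 321 and 311 CPM, both with overlapping labels and log2 fold changes of 0.20 and 0.09.

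Nop10, the smallest of these proteins, went the other way, at 115 and 113 CPM in the WT-labelled pair and 107 and 97.3 CPM in the KO-labelled pair (log2 fold change −0.16, standard error 0.11, adjusted p = 0.591). Nop10 and Rrp8 were the 2 genes whose KO-labelled pair lay wholly below the WT-labelled pair. Over the H/ACA genes the summed level was 635 and 748 CPM in the WT-labelled pair and 749 and 748 CPM in the KO-labelled pair, so that labelled WT replicate 1 alone stood low.

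Several members also house snoRNA genes on their own strand, from whose spliced introns such guides are known to be made. In the GENCODE annotation 8 of the 56 members hold 23 snoRNA genes: Nop56 holds 5, Nop58 4, Gnl3, Ncl and Wdr43 3 each, Ppan and Tsr1 2 each and Dkc1 1. Of all protein-coding genes tested, 1.9% hold any. These snoRNA genes had at most 16 counts in a library. Gnl3, Ppan, Nop56, Nop58 and Ncl share annotated exon bases with such genes, and no source used here says how such reads were divided.

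Among the nucleolar scaffold proteins, Ncl (nucleolin), which binds precursor RNA and polymerase I chromatin, was the most abundant member by counts. It stood at 2808 and 2747 CPM in the WT-labelled pair and at 3245 and 3624 CPM in the KO-labelled pair (log2 fold change 0.31, standard error 0.14, adjusted p = 0.433). Nolc1, a phosphoprotein that shuttles snoRNPs between nucleolus and Cajal bodies, stood at 475 and 547 CPM against 697 and 596 CPM (log2 fold change 0.34, standard error 0.13, adjusted p = 0.363). Neither overlapped between labels.

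Npm1 (nucleophosmin), which forms the granular outer layer of the nucleolus, stood at 1102 and 1583 CPM in the WT-labelled pair and at 1260.2 and 1364 CPM in the KO-labelled pair. Both libraries labelled KO lay between those labelled WT. Its log2 fold change of −0.03 (standard error 0.19, adjusted p = 0.962) had 95% limits of −0.48 and 0.41. Without Ncl and Npm1 the summed level of the other 54 members was 9943 and 10967 CPM in the WT-labelled pair and 12671 and 12235 CPM in the KO-labelled pair.

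Levels per length differed widely between members. By deposited FPKM (counts per kilobase of gene length, scaled to library size) Npm1, Ncl and Nhp2 were highest, with means over the 4 libraries of 329, 256 and 174 FPKM, and Wdr12, Krr1 and Rrp8 lowest, with 8.55, 9.56 and 10.6 FPKM. The gene lengths behind the deposited FPKM were 0.405 to 3.72 times the annotated exon length of the member, so CPM per kilobase of annotated exon was used as well. It named the same 3 highest and 3 lowest genes. Within box C/D, mean levels were 79.5 for Nop56, 80.4 for Fbl and 22.9 CPM per kilobase for Nop58. The deposited FPKM kept their order but not their spacing, at 21.3, 63.7 and 16.9, with Nop56 far below Fbl.

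**Figure D3:**
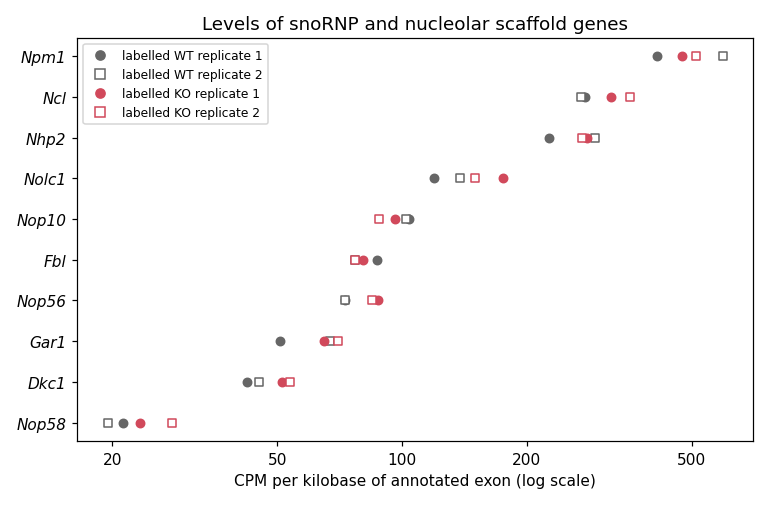
CPM per kilobase of annotated exon (log scale) of the 10 snoRNP and nucleolar scaffold genes, 1 point per library. Npm1 and Ncl are the highest and Nop58 the lowest, and the labelled KO points of Npm1 lie between its labelled WT points.

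The remaining 29 members, described here together, all had positive log2 fold changes of 0.05 to 0.37, with a median of 0.24. In 18 of them the KO-labelled pair lay wholly above the WT-labelled pair, beside 21.5% of all genes tested. In 11 the labels overlapped, beside 7458 of the 13528 genes tested. An unadjusted p under 0.05 by edgeR was found in 10, beside 5.7% of all genes tested with the KO-labelled pair higher. Besides those given above they include Nop2 and Ftsj3, methyltransferases of the large-subunit RNA, Pdcd11, which acts on both subunits, Rrs1, which brings in the 5S particle, and the GTPase Gnl2.

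Genes of the same pathway outside the 56 were described through 5 lists with 154 genes found and tested. Their median log2 fold change was 0.17, and 136 were positive and 18 negative, where 48.1% of all genes tested were positive. In 77 the KO-labelled pair lay wholly above the WT-labelled pair and in 2 wholly below, beside 21.5% and 23.3% of all genes tested. By edgeR 0 were called, where 0.207% of all genes tested were. Before adjustment, 25 had p under 0.05 with a positive log2 fold change and 1 with a negative one, beside 5.7% and 7.23% of all genes tested. Other large-subunit factors had a median of 0.22. The KO-labelled pair lay wholly above in 34 of 52 of these, in 19 of 42 other small-subunit factors, 7 of 12 snoRNP assembly factors, 9 of 22 polymerase I genes and 8 of 26 genes of the exosome and RNase MRP, beside 21.5% of all genes tested. The median was 0.14 for other small-subunit factors, 0.13 for snoRNP assembly factors, 0.12 for RNA polymerase I transcription and 0.09 for the RNA exosome and RNase MRP.

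Examples in these lists were Polr1b, the second largest subunit of RNA polymerase I, at 175 and 204 CPM in the WT-labelled pair and 251 and 245 CPM in the KO-labelled pair, and Naf1, an H/ACA assembly factor, at 48.9 and 53.5 CPM against 68.5 and 69.3 CPM. Their log2 fold changes were 0.38 and 0.43, each with an adjusted p of 0.257 by edgeR. Trmt112, a partner of several methyltransferases including that of the small-subunit RNA, stood at 20.4 and 19.96 CPM against 13.2 and 12.53 CPM (log2 fold change −0.65, adjusted p = 0.186). These 3 genes were chosen after their values were seen.

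**Figure D4:**
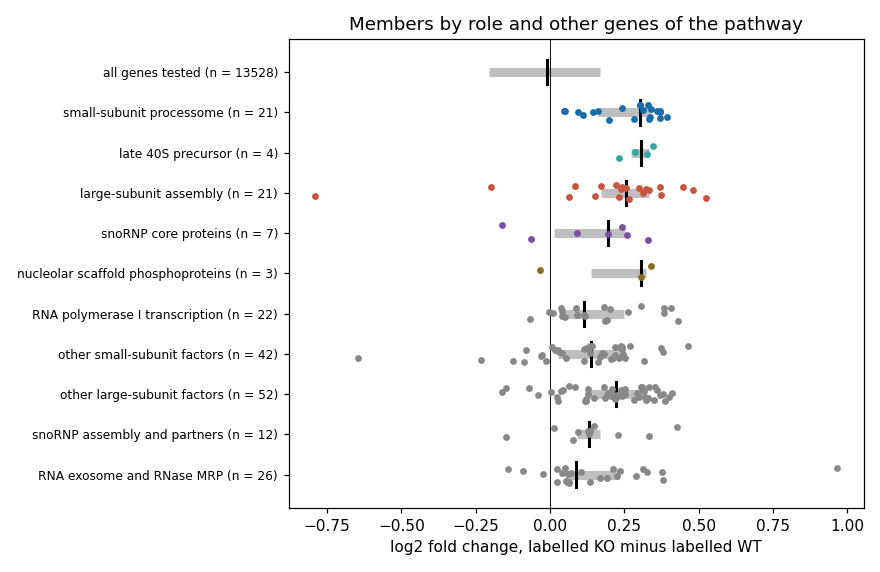
Log2 fold changes (labelled KO minus labelled WT) of the members by role and of 5 other lists of the pathway; points are genes, grey bars the quartiles and black ticks the medians. Medians of the 5 roles lie between 0.20 and 0.31 and those of the other lists between 0.09 and 0.22, beside −0.01 over all genes tested.

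Fold changes moved with transcript length. Over the 56 members the Spearman correlation of the log2 fold change with the length of the longest annotated transcript was 0.41, and over 13506 genes tested with an annotated transcript it was 0.22. Genes share their libraries and are not replicates, so this is a description. The 28 members with shorter transcripts, of 924 to 3053 bases, had a median log2 fold change of 0.22, and 13 of them had the KO-labelled pair wholly above the WT-labelled pair. The 28 with longer transcripts, of 3092 to 17970 bases, had a median of 0.31, and 25 of them did. All genes tested in the same length ranges had medians of −0.04 and 0.04, and that order was found in 16.9% and 28.8% of them.

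With the trend of length and GC content over all genes taken out, the median of the members was 0.26, and 51 of 56 were positive, the same 51 as before. The correlation with length among members ran from 0.19 without labelled WT replicate 2 to 0.46 without labelled WT replicate 1. Over all genes it ran from 0.081 without labelled WT replicate 2 to 0.28 without labelled WT replicate 1. The correlation of the members' fold changes with GC content was −0.21, and it ran from −0.51 without labelled KO replicate 1 to 0.23 without labelled WT replicate 2. Taking the trend out turned no member's sign, left 32 members higher and 24 lower than before, and moved the log2 fold change of Wdr12 from 0.22 to 0.0031, of Nop58 from 0.33 to 0.13, of Ncl from 0.31 to 0.16 and of Mdn1 from 0.52 to 0.39. Those of Gnl3 and Ppan were 0.49 and 0.48 after it.

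**Figure D5:**
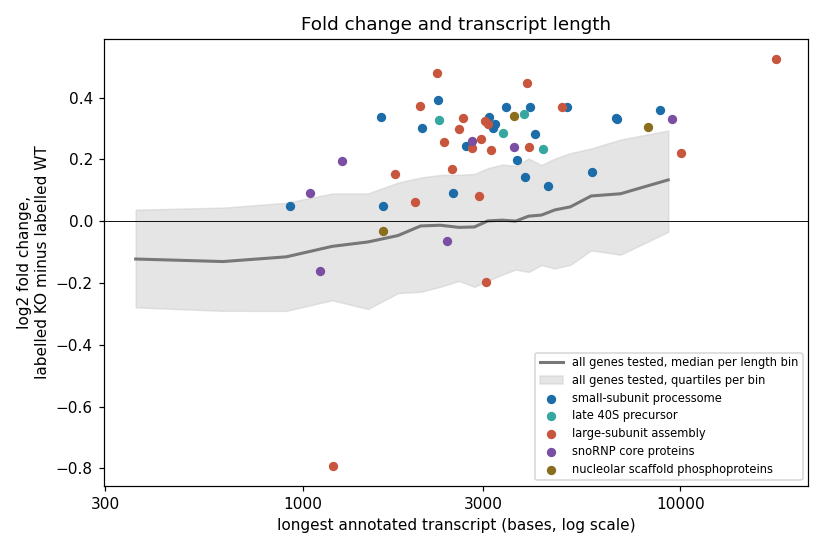
Log2 fold change (labelled KO minus labelled WT) against the length of the longest annotated transcript on a log scale; coloured points are the 56 members, the grey line and band the median and quartiles of all genes tested in bins of length. Many members lie above the band, and the grey line climbs with length.

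Promoter windows were searched for short motifs because most members had fold changes of the same sign. RefSeq windows (GRCm38.p6) from 250 bases before to 50 after the start were at hand for 48 of the 56 genes. The E-box CACGTG, the same on both strands and known as a site of MYC with MAX, was in the windows of 10 of these 48 genes, in 12.1% of the 9004 tested genes with a window and in 7.15% of all 32851 windows. The ETS-type motif CCGGAAG, on either strand, was in 21 of 48, in 22.0% of tested genes and in 8.86% of all windows, and 5 members held both. A match is a description of the letters and no measure of binding.

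Of the 10 members with CACGTG, 8 had the KO-labelled pair wholly above the WT-labelled pair, as did 38 of all 56 members and 21.5% of all genes tested. The median log2 fold change of the 10 was 0.31, against 0.27 for members whose windows lacked it. The letters around each E-box are shown because they place this motif beside the start of genes described above, Mdn1 and Wdr43 among them. Windows of 30 bases run 5′ to 3′ on the gene's strand with the motif in capitals.
Mdn1: caacgtgaattccttcacCACGTGtgtgtc
Wdr43: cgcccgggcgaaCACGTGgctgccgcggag
Utp20: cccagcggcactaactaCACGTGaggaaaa
Utp4: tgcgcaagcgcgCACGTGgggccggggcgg
Utp18: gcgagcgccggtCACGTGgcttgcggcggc
Nop2: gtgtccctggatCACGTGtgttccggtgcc
Ltv1: gccctgtggaccCACGTGtggagctgccgg
Tsr1: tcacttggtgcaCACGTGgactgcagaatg
Imp4: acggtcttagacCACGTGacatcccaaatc
Pes1: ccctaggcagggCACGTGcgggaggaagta
The first base of the motif lies at position 39 from the start in Mdn1 (chr4:32657139-32657168, plus strand), 18 in Wdr43 (chr17:71616220-71616249, plus) and 38 in Utp20 (chr10:88826765-88826794, minus). It lies upstream, at −20 in Utp18 (chr11:93885769-93885798, minus), −60 in Nop2 (chr6:125131811-125131840, plus) and −121 in Imp4 (chr1:34439696-34439725, plus). In the other 4 it lies 3 to 29 bases from the start. Imp4 and Pes1 are the 2 of these genes whose labels overlapped.

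The ETS-type motif is shown for Wdr3, Mphosph10 and Ppan, described above, whose windows hold no E-box, in capitals on whichever strand it reads. They were picked with their values known. Of all 21 members with this motif, 17 had the KO-labelled pair wholly above the WT-labelled pair, as did 38 of all 56 members and 21.5% of all genes tested.
Wdr3: ttccaatcggaCCGGAAGtggcgggtctcg
Mphosph10: ttggcgtactgCTTCCGGccggccggccgg
Ppan: gccgcgtggcaCCGGAAGttggccacgtaa
These windows are chr3:100162382-100162411 (minus strand), chr7:64392230-64392259 (minus) and chr9:20888182-20888211 (plus). The median log2 fold change was 0.31 for the 21 members with this motif and 0.26 for those without it. Another 5 motifs were counted in the same windows: CACGCG in 15 members against 20.7% of tested genes, GGAAGT in 30 against 33.6%, GATTGGC in 2 against 12.6%, TATAAA in 4 against 8.07% and CGCGAG in 12 against 24.9%, both strands in each case. GGAAGT overlaps CCGGAAG where a T follows.

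Libraries held 12967251 to 17316284 counts, and every member had far more than the 3 counts of a library that serve as its floor. All 10 genes of the CD8 T cell list were detected. Cd8a stood at 542 and 523 CPM in the WT-labelled pair against 547 and 511 CPM, and Cd3d at 173 and 175 CPM against 107 and 137 CPM (log2 fold change −0.52, adjusted p = 0.222 by edgeR). The list summed to 3477 and 3195 CPM against 3039 and 2836 CPM. In the KO-labelled pair 6 of its 10 genes lay wholly lower, as did 23.3% of all genes tested. Cd4 stood at 2.996 and 4.71 CPM against 10.0 and 5.12 CPM (log2 fold change 0.96, adjusted p = 0.369 by edgeR). Foxp3, at 1.23 and 0.706 CPM against 2.33 and 1.32 CPM, also lay wholly higher in the KO-labelled pair. So did Cd40lg, at 0.999 and 1.12 CPM against 1.20 and 1.52 CPM, an order found in 21.5% of all genes tested. Only Zbtb7b of the same CD4 T cell list went the other way, at 9.53 and 16.7 CPM against 9.02 and 7.06 CPM (log2 fold change −0.71, adjusted p = 0.383 by edgeR). The sum of that list, at 14.8 and 23.2 CPM against 22.6 and 15.02 CPM, overlapped. B cell markers summed to 426 and 367 CPM against 305 and 269 CPM, of which Ighm made up most, with Cd79b at 10.3 and 10.1 CPM against 7.74 and 5.61 CPM. Stromal and endothelial markers summed to 37.5 and 31.2 CPM against 18.1 and 19.0 CPM, nearly all of it Pecam1 (log2 fold change −0.88, adjusted p = 0.112), with Col3a1 and Cdh5 at 0. Erythroid and platelet markers summed to 3.30 and 6.18 CPM against 1.65 and 2.28 CPM, with Alas2 at 0. The myeloid list, at 10.1 to 19.3 CPM with Itgax up to 5.65 and Cd68 up to 3.36 CPM and S100a9 and Elane at 0, and the list of NK and gamma-delta T cells, at 89.4 to 105 CPM, overlapped. Most of the latter was Eomes, at 84.4 and 92.8 CPM in the WT-labelled pair against 80.1 and 76.9 CPM. Trdc went the other way, at 8.07 and 6.95 CPM against 10.4 and 9.21 CPM. The part of other cells in the differences was not tested, and in bulk RNA fewer cells of a type and less RNA per cell cannot be told apart.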

How the data were processed

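Stimulated CD8+ T cell RNA was sequenced in 4 libraries. Per the labels' protocols, total RNA gave purified mRNA and then stranded libraries. Per the file headers, the authors deposited raw counts per gene and FPKM, that is counts per kilobase of a gene length, scaled to library size. The submitters' processing notes name kallisto and GRCm38. Strand use in counting and filters: neither is given in the sources used here. Columns were joined to samples through the description codes, and 8 other columns of values were not used.

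Counts were filtered with filterByExpr, scaled by TMM and tested with edgeR 4.0.16 (quasi-likelihood, R 4.3.3) in a two-sided contrast of labelled KO over labelled WT, with p adjusted by Benjamini-Hochberg over 13528 genes with a threshold of 0.05. The standard error was the log2 fold change divided by the root of F, and TMM library sizes were used for CPM. Biological variation had a coefficient of 15.9%. With 2 libraries on a side no exact permutation test of 1 gene can reach the threshold, and the p-values borrow spread from all genes. Scripts were tested on simulated data.

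The members and lists were chosen with earlier results of these data known. Named members are the 5 with the smallest p in each role (all in roles of 7 or fewer), the 3 highest and 3 lowest by FPKM, and those with negative log2 fold changes, at most 5, which gave 27. Other members of the complexes could be named too. Genes named outside the rule (Rrp1, the genes singled out from the remaining members, hosts of snoRNA genes, members with motifs and the markers) were chosen after values were seen. Alternatives were DESeq2 1.42.0, limma 3.58.1 on log2(FPKM + 1) and log2(FPKM + 0.1), other scalings, no filter, a replicate block and leaving out each library. Exon lengths, overlaps and transcript lengths come from GENCODE (GRCm38), in which 51 of 56 members lie at the coordinates of the table. Motifs were chosen after the data were seen, and longer ones that contain motifs counted here were also looked at and are not reported.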

Additional observations from a re-analysis of the deposited data

How the results depend on the processing

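Over the alternatives, all of them for 56 members, the median log2 fold change of the members ran from 0.22 to 0.33 and the number of members with a positive one from 47 to 52, leaving aside the run without the 5 members that share exon bases on the same strand, which gave 46 of 51. That run and the one with the length and GC trend taken out were added after seeing the data. No alternative but DESeq2 called a member. DESeq2 called 2, where Mdn1 had a log2 fold change of 0.53 and Gnl3 0.49. Leaving out 1 library at a time, 0 members were called each time, the median ran from 0.22 to 0.33, members lying wholly above in the libraries labelled KO numbered 40 to 50 (71.4% to 89.3%, where 33.2% to 36.3% of all genes were in the same runs) and those wholly below 2 to 6 (3.57% to 10.7%, where 35.5% to 39.5% of all genes were). With 1 library on a side the lone library is assumed to vary like the other label, and fewer samples make it easier not to overlap. Over the whole table the number of genes called was 28, and it was 21 with library totals alone, 276 by DESeq2, 146 unfiltered, 5 and 4 by limma on log2(FPKM + 1) and log2(FPKM + 0.1), 123 with the replicate block and 3 to 266 as single libraries were left out, where 3 was without labelled KO replicate 2 and 266 without labelled WT replicate 1. The mean summed level in the libraries labelled KO was 17251 CPM with RLE size factors and 17311 CPM with library totals alone, against 17200 CPM. Without labelled WT replicate 2, 1 other gene of the pathway (Exosc6) was called higher, and without each of the other libraries 0 were.

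Of 324 alternative values of the 27 named members, 315 kept the sign and, where tested, the side of the threshold and 7 turned their sign, with the cause not tested. Over single libraries left out, Wdr74 ran from −1.47 to 0.35 and Npm1 from −0.27 to 0.25, both highest without labelled WT replicate 2, Fbl from −0.15 to 0.0335 and Nhp2 from −0.0785 to 0.29, both turned without labelled WT replicate 1. Npm1 was also positive without labelled KO replicate 1 (0.0226) and on the log2 FPKM scales (0.00781 with a pseudocount of 1 and 0.00789 with 0.1). Leaving out 1 library moved 12 named members by over 1.5 times. Besides these and Bysl and Rrp12, they were Gar1 (0.015 without labelled WT replicate 1, 0.41 without replicate 2), Rrp8 (−0.33 and −0.047) and Wdr12 (0.125 and 0.33) for the same libraries, Nolc1 without labelled KO replicate 1 (0.22), and Nop10 (−0.091) and Nop58 (0.20) without labelled KO replicate 2. The replicate number as a block gave 10 members with an unadjusted p under 0.05 by edgeR, against 27, and none called, with a lowest adjusted p of 0.243. That run called 123 genes over the whole table, against 28. The share of all genes with an unadjusted p under 0.05 in that run is not given here, so the 10 cannot be set beside it. Same-numbered libraries deviated from their label means with a correlation of −0.17 across genes. No label says that a number marks a shared mouse or day, so whether the numbers pair libraries cannot be told. There were 2 libraries per label.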

Other observations

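Exosc6, a core subunit of the RNA exosome, was counted very unequally within a label. Its counts were 2 and 1183 in the WT-labelled pair, and 1009 and 893 in the KO-labelled pair. The labels overlapped, and the log2 fold change of 0.97 had an adjusted p of 0.812 by edgeR. It was chosen after its values were seen.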
